A study of Danio rerio x Danio aesculapii and Danio rerio x Danio albolineatus and Danio rerio x Danio kyathit with 48 samples.

Results

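Solute carriers are membrane proteins that move small molecules across the plasma membrane and the membranes of organelles. In fish their gene symbols start with slc and a family number, followed by a letter, mostly a, and usually a member number. The genes described here are the solute carriers with a high mean level in Danio skin and pigment cells. They were chosen by measured level: the genes whose symbol starts with slc and a digit and whose value, summed over both parental alleles, averaged 100 or more over all 48 libraries. Leaving out slc45a2, slc2a15a, slc2a15b, slc22a7a and slc37a2, the rule kept 132 of 324 solute carrier rows, in tables of 19629 genes. The members just inside the limit were slc38a7, slc39a10 and slc44a5b, with means of 100.5, 103.8 and 105.3, and those just outside were slc6a7, slc25a15b and slc25a40, with means of 98.25, 97.75 and 96.4. A further 5 members, slc22a7b.3, slc5a2, slc5a12, slc6a19b and slc34a1a, held 93.1% to 95.9% of their sum in replicate 3 of the D. aesculapii melanophore libraries. They reached the limit only through that library. The means of slc24a5 and slc22a21 also fell below the limit without it, though most of their sum lay in other libraries. By the substrates usually given for their families, 27 members carry amino acids or peptides, 19 are mitochondrial carriers, 18 carry metals, 16 carry organic solutes such as monocarboxylates, urea or organic ions, 11 carry sugars and 11 nucleotide sugars. The other classes held 8 carriers of inorganic anions or protons, 7 of vitamins, nucleosides or nucleobases, 5 of lipids, 4 of phosphate and 3 cation exchangers, and 3 members bear a solute carrier symbol without being carriers.

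RNA was sequenced from the skin of adult hybrids between D. rerio (zebrafish) mothers and fathers of 4 related species, namely D. nigrofasciatus, D. kyathit, D. albolineatus and D. aesculapii, and the reads were counted for each parent's allele. The fish carried membrane-bound fluorescent reporters: pnp4a:mem-mCherry marks iridophores, tyrp1b:mem-mCherry marks melanophores and aox5:mem-EGFP marks xanthophores. Dissociated skin was sorted on a reporter into iridophore-enriched, melanophore-enriched or xanthophore-enriched libraries, and whole skin without enrichment was the control, called unenriched or skin here. Each of the 4 hybrids had 3 libraries of each of these 4 kinds, which made 16 groups and 48 libraries. All mothers were D. rerio, so the species of an allele and the parent it came from cannot be told apart. The labels do not say whether replicates came from separate fish, so the p-values measure only the spread between these libraries.

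Zebrafish skin holds melanophores, which make black melanin in melanosomes, xanthophores, which hold yellow pteridine and carotenoid pigments, and iridophores, which reflect light from stacked crystals of purines, chiefly guanine. Each pigment is made from small molecules that must enter the cell or an organelle, and several known pigment mutants of fish lie in solute carrier genes. Amino acid exchangers of the plasma membrane work as pairs, in which a heavy chain encoded by an slc3a2 gene carries a transporting light chain such as the product of slc7a7. Mitochondrial carriers of family 25 move nucleotides, phosphate and metabolites across the inner mitochondrial membrane.

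The deposited values were scaled to a common size and rounded, so depth had to be estimated from the spread of the allele shares between libraries. It ranged from 36368 to 982365 molecules per library, with medians of 507321 in unenriched skin, 196623 in iridophore, 94556 in melanophore and 92749 in xanthophore libraries. Differences were therefore harder to detect in the melanophore and xanthophore libraries. The summed markers of each pigment cell were highest in the libraries sorted for it. The 6 iridophore markers had a median sum of 35214.5 in iridophore libraries and 1160.5 in skin, the 6 melanophore markers 72888.5 in melanophore libraries and 821.5 in skin, and the 6 xanthophore markers 35009.5 in xanthophore libraries and 4607.5 in skin. These lists include the reporters' own genes, so they check the sorting and are no finding. In the melanophore libraries 5 of the 6 xanthophore markers were also higher than in skin. So were all 4 tested of the iridophore markers, with a median sum of 3503.5 there. In the iridophore libraries 2 of 3 tested melanophore markers were higher than in skin, with a median sum of 5818.5, and 3 of 5 tested xanthophore markers were lower. Xanthophore libraries had 1 of 2 tested iridophore and 1 of 3 tested melanophore markers higher. Markers of other cells moved with the sorting too. In iridophore libraries all 6 keratinocyte, all 6 leukocyte, all 4 erythrocyte and all 5 tested of 6 dermal fibroblast and scale markers were lower than in skin. 

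The D. aesculapii melanophore library of replicate 3 stood apart from the rest. It was the shallowest of the 48, with 36368 molecules. It held 11372 for slc22a7b.3, an organic anion transporter family gene, 6945 for slc5a2 and 6347 for slc5a12, sodium-coupled carriers of glucose and of monocarboxylates, 6412 for slc6a19b, a neutral amino acid carrier, and 5215 for slc34a1a, a sodium-coupled phosphate carrier. In the other 47 libraries none of the 5 genes passed 89, and their means there lay between 5.89 and 10.3. Of these genes slc22a7b.3 was called in comparisons below, and it was not tested once that library was left out. The members' share of the summed value was 1.91% in that library and 1.06% ± 0.199 (SD, n = 11) in the other melanophore libraries. Without it 11 members were higher and 12 lower in melanophores than in skin, of 43 tested. These 5 genes were chosen after their values were seen.

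In these bulk libraries fewer cells of a type and less RNA per cell cannot be told apart.

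The members' share of the summed value was 0.909% ± 0.105 (SD, n = 12) in iridophore, 1.13% ± 0.311 in melanophore, 0.920% ± 0.0918 in xanthophore and 0.942% ± 0.0878 in unenriched libraries, and the ranges of the 4 kinds overlapped. The 6 members of highest mean value were slc25a5, slc3a2b, slc25a3b, slc2a11b, slc43a3b and slc38a5b, and no level is compared between genes because gene lengths were not used here. The ADP/ATP carrier gene slc25a5 had lowest, median and highest values of 8117, 14880.5 and 17800 in iridophore, 13097, 15822 and 20060 in melanophore, 10199, 17185.5 and 26455 in xanthophore and 14846, 16788.5 and 25705 in unenriched libraries. It was lower in iridophore libraries than in skin by a small amount, with a log2 difference of -0.38 ± 0.13 (SE; adjusted p = 0.0123). That call was lost without D. aesculapii iridophore replicate 4 or 5, and the groups overlapped. The mitochondrial phosphate carrier gene slc25a3b had medians of 2412, 2441, 2389.5 and 2121 in iridophore, melanophore, xanthophore and unenriched libraries, and none of its 6 comparisons between kinds passed the test.

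Expression was compared between kinds of library with limma, a linear model with moderated variances, on log2 of the summed value plus 20. Each comparison averaged the differences within the 4 hybrids, p-values were adjusted over all genes tested by the Benjamini-Hochberg method, and a call means an adjusted p under 0.05. Because 20 was added, a fold understates the change of a gene of low value. A gene was tested if the mean of both kinds was worth 5 or more molecules, so a member near 0 in skin could enter only through a high level in pigment cells, and counts over the members tested support nothing by themselves. Of the 85 members tested between iridophore-enriched libraries and skin, 25 were higher and 27 lower, where 25.8% of all 6260 genes tested were higher and 29.2% lower. Of 46 members tested between melanophore-enriched libraries and skin, 12 were higher and 13 lower, with 21.1% and 19.6% over all genes. Of 38 tested between xanthophore-enriched libraries and skin, 1 was higher and 5 were lower, with 11.8% and 9.26% over all genes. The median log2 difference of the members tested was -0.13, -0.17 and -0.18 in the 3 comparisons, and that of all genes tested was -0.07, -0.04 and -0.05. Size factors recomputed on the summed values moved the median of all genes up by 0.10, 0.12 and 0.14. They changed the calls over all genes in iridophores from 1613 higher and 1826 lower to 1773 and 1576. In melanophores these went from 739 and 687 to 914 and 506, and in xanthophores from 397 and 312 to 577 and 213. Among the members the calls became 26 higher and 22 lower, 13 and 12, and 1 and 3. The 5 genes left out by the rule were all called in iridophores against skin: slc2a15a, slc45a2 and slc2a15b were higher by log2 differences of 3.10, 2.0 and 1.39, and slc22a7a and slc37a2 lower by -1.92 and -0.54, so the counts of members lack them.

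These 3 comparisons share the unenriched libraries, so a member low in skin can rise in all of them. Of the members, 89 were tested in at least 1 of them, 35 in all 3, and 63 were called in at least 1 (70.8%, against 60.9% of all genes tested in at least 1). Of the 35, none was higher in all 3, against 6.19% of all genes tested in all 3. Lower in all 3 were 5 (14.3%, against 6.55%): slc16a12b, slc20a1b, slc25a55a, slc38a2 and slc44a2. These 5 depend on the xanthophore calls. Without the libraries of replicate number 3, 4 or 5, the members called lower in xanthophores than in skin were 0, 0 and 1. The sorted kinds were also set against each other. Between iridophore and melanophore libraries 6 of 47 members tested were higher in iridophores and 11 lower, with 20.9% and 19.5% over all genes. Between iridophore and xanthophore libraries 7 of 38 were higher in iridophores and 6 lower, with 19.1% and 18.5% over all genes. Between melanophore and xanthophore libraries 4 of 45 were higher in melanophores and 1 lower, with 4.41% and 3.11% over all genes.

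**Figure D1:**
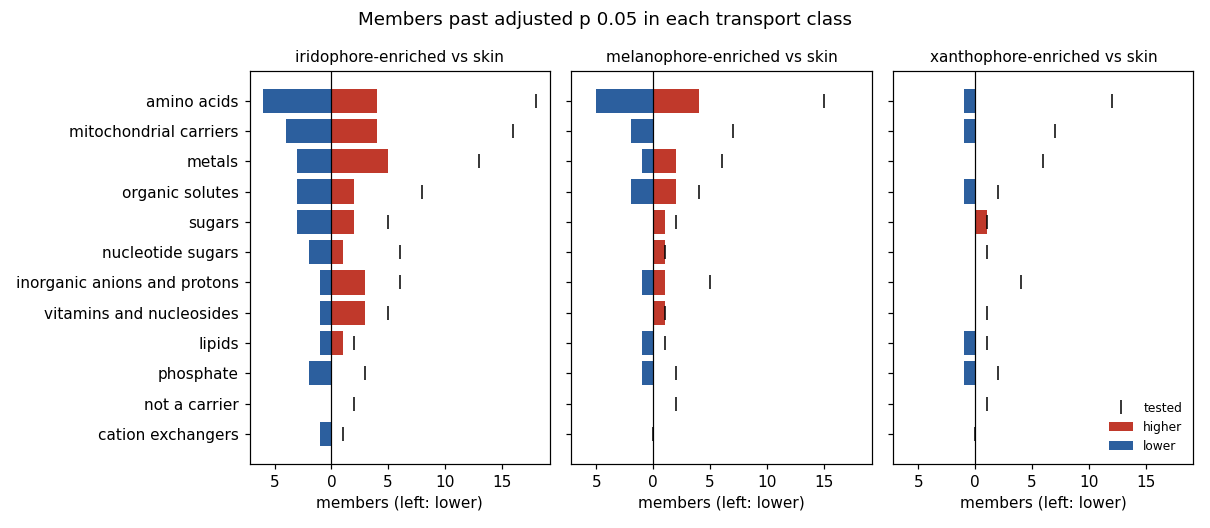
Bars give the number of members past the test in each substrate class, to the right where higher than in skin and to the left where lower, and black ticks give the number tested. The iridophore panel holds 25 higher and 27 lower members, spread over 11 of the 12 classes, and the xanthophore panel holds 1 higher and 5 lower.

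Vitamin, nucleoside and nucleobase carriers held members that were high in 1 kind of sorted library each. Here and in the classes below, a member low in the other kinds may have reached the level limit through that kind. Counts of rises in a class are thus partly set by the rule. Of the 7 in this class, 5 were tested against skin in iridophores, of which 3 were higher and 1 lower, with 25.8% and 29.2% over all genes. The riboflavin transporter gene slc52a3 had lowest, median and highest values of 59, 330.5 and 907 in iridophore libraries and 0, 6.5 and 87 in skin. Only the lowest iridophore library fell within the range of the skin libraries. Its log2 difference was 3.55 ± 0.28 (adjusted p = 2.81e-15), a fold of 11.7, and the difference within a hybrid lay between 2.08 and 4.42. In melanophore and xanthophore libraries its medians were 30 and 5.5, and it was not tested there. The plasma membrane monoamine transporter gene slc29a4, of the nucleoside transporter family, had values of 176, 437.5 and 954 in iridophore libraries against 4, 32.5 and 95 in skin, and these ranges did not overlap. It rose by 3.21 ± 0.27 (adjusted p = 4.04e-14). Its paralog slc29a1a, the equilibrative nucleoside transporter, had medians of 194.5 in iridophore libraries and 123.5 in skin, with overlapping ranges. It rose by 0.65 ± 0.25 (adjusted p = 0.0239), and the call was lost on leaving out 5 of the 24 libraries in turn.

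A further gene of this class, slc43a3b, is related to a purine nucleobase transporter of mammals. Its values were 460, 2339 and 11869 in melanophore, 214, 882.5 and 3650 in xanthophore, 229, 626 and 1172 in unenriched and 12, 254 and 1692 in iridophore libraries. It was higher in melanophore libraries than in skin by 2.27 ± 0.35 on the log2 scale (adjusted p = 3.14e-06) and lower in iridophore than in melanophore libraries by -3.19 ± 0.44 (adjusted p = 1.27e-07). All 4 hybrids showed both directions, with differences of 1.98 to 2.67 and -3.51 to -2.86. Its difference between melanophores and xanthophores was 1.55 ± 0.46 (adjusted p = 0.0324), a call lost on leaving out 11 of 24 libraries in turn. That between iridophores and xanthophores was -1.64 ± 0.53 (adjusted p = 0.0129), lost without D. aesculapii xanthophore replicate 4 or D. nigrofasciatus iridophore replicate 4.

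**Figure D2:**
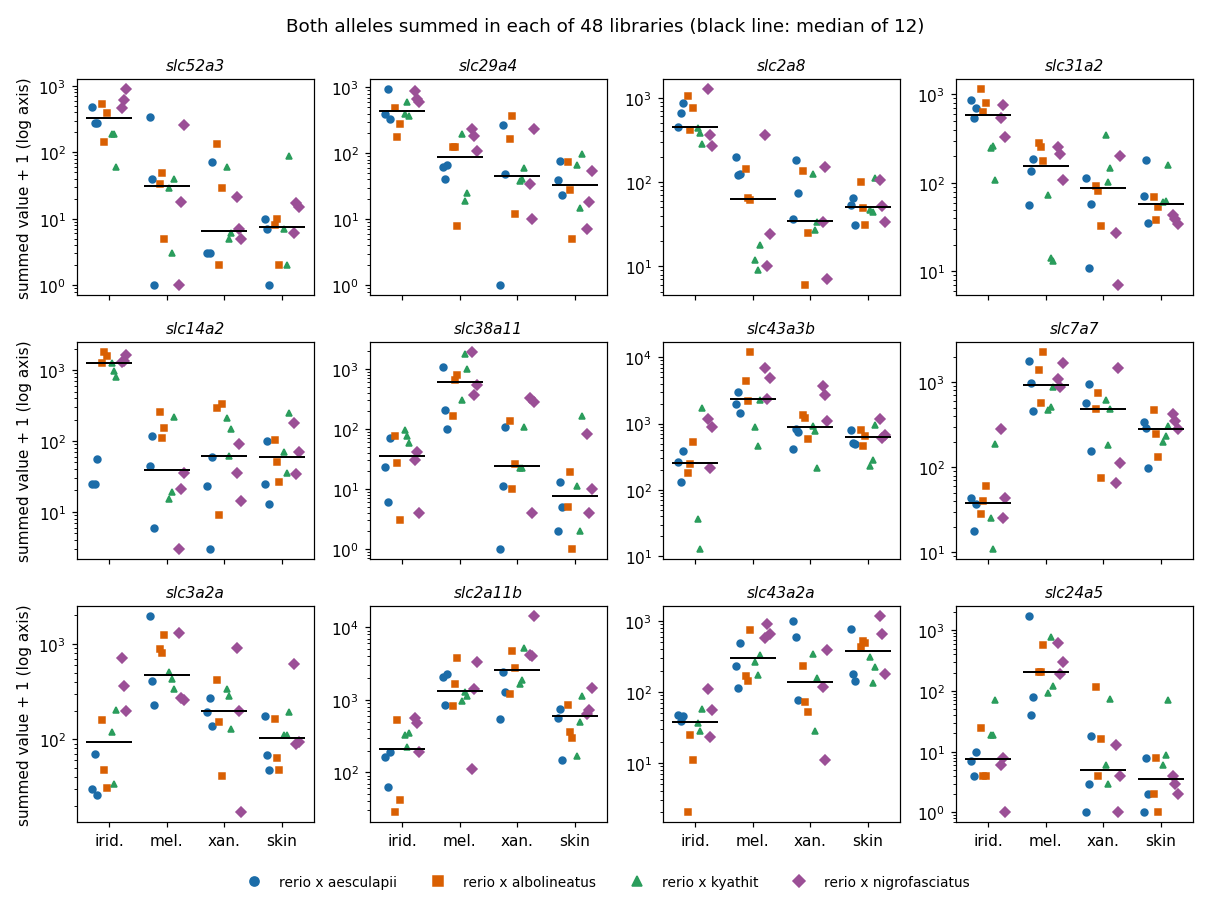
Each point is 1 library's value with both alleles summed, plus 1, on a log axis, by kind of library and hybrid, and the black line is the median of 12 libraries. slc52a3, slc29a4, slc2a8 and slc31a2 sit highest in iridophore libraries, slc38a11, slc43a3b, slc7a7 and slc24a5 in melanophore libraries and slc2a11b in xanthophore libraries, and the 3 D. aesculapii iridophore libraries stand apart for slc14a2.

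Among the sugar carriers, different members were high in different pigment cells. The gene slc2a8 encodes a glucose transporter found mainly on internal membranes in mammals. Its values were 268, 445.5 and 1279 in iridophore, 30, 49.5 and 112 in unenriched, 8, 61.5 and 358 in melanophore and 5, 34 and 179 in xanthophore libraries. Every iridophore library lay above every skin and xanthophore library, and the ranges of iridophores and melanophores overlapped. Its log2 difference was 3.04 ± 0.22 against skin (adjusted p = 3.72e-16), 2.88 ± 0.31 against melanophores (adjusted p = 2.59e-10) and 3.11 ± 0.39 against xanthophores (adjusted p = 1.13e-08). The difference from skin had the same sign in all 4 hybrids, from 2.44 in D. kyathit to 3.49 in D. aesculapii.

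The sugar transporter family member slc2a11b is known from a pigment cell mutant of medaka. Its values were 538, 2568 and 14310 in xanthophore, 109, 1340.5 and 3762 in melanophore, 147, 597 and 1459 in unenriched and 27, 206 and 552 in iridophore libraries. The order of the medians was thus xanthophore, melanophore, skin and iridophore, and neighbouring kinds overlapped in range. It was the only member called higher in xanthophores than in skin, by 2.44 ± 0.36 (adjusted p = 4.34e-06), with 1.37 to 3.51 in the 4 hybrids. This call was kept on leaving out any 1 library and lost without all libraries of replicate number 4 (2.22, adjusted p = 0.0684). It was also higher in melanophores than in skin by 1.23 ± 0.33 (adjusted p = 0.00301) and lower in iridophores than in skin by -1.45 ± 0.41 (adjusted p = 0.00298), the latter lost without number 4 or number 5 (adjusted p = 0.0902 and 0.0875). In iridophores it was lower than in xanthophores by -3.90 ± 0.45 (adjusted p = 3.43e-09). The difference between melanophores and xanthophores of -1.21 ± 0.38 (adjusted p = 0.0409) was lost on leaving out 18 of the 24 libraries in turn. In the melanophore libraries xanthophore markers moved with it, as given above (median sum 12681.5 against 4607.5 in skin), and their part in the result was not tested. The glucose transporter paralog slc2a1b was lower in iridophores than in skin by -1.48 ± 0.30 (adjusted p = 4.07e-05), with values of 18, 89.5 and 456 against 146, 365.5 and 686. Over the 11 sugar carriers, 2 of 5 tested were higher and 3 lower in iridophores than in skin, with 25.8% and 29.2% over all genes.

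Amino acid and peptide carriers were the largest class, and their calls ran both ways. In iridophores 4 of 18 tested were higher than in skin and 6 lower, with 25.8% and 29.2% over all genes. In melanophores 4 of 15 were higher and 5 lower, with 21.1% and 19.6% over all genes. In xanthophores 1 of 12 was called, and it was lower, with 11.8% higher and 9.26% lower over all genes. The largest rise of any member in melanophores was that of slc38a11, which encodes a member of the sodium-coupled neutral amino acid transporter family. Its values were 101, 608 and 1914 in melanophore, 0, 23 and 331 in xanthophore, 2, 35 and 97 in iridophore and 0, 6.5 and 162 in unenriched libraries. Every melanophore library lay above every iridophore library, and only the lowest came within the range of skin. It rose by 3.88 ± 0.35 against skin (adjusted p = 7.93e-12), with 3.15 to 4.41 in the 4 hybrids. It was also higher than in xanthophores by 2.52 ± 0.58 (adjusted p = 0.00444), a call lost without the libraries of replicate number 4 (2.44, adjusted p = 0.118), and lower in iridophores than in melanophores by -3.07 ± 0.46 (adjusted p = 3.97e-07).

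A light chain and a heavy chain gene of the heteromeric exchangers were both higher in melanophores than in skin, but such genes did not all move this way. Of the other carrier genes of family 7 tested there, slc7a8a was called higher, slc7a10a lower and slc7a3a in neither direction. The heavy chain gene slc3a2b was not called there. The light chain gene slc7a7, which in zebrafish is needed in macrophages of the brain, had values of 461, 925.5 and 2245 in melanophore, 97, 283.5 and 474 in unenriched, 64, 481.5 and 1486 in xanthophore and 10, 37.5 and 283 in iridophore libraries. All but 2 of the melanophore libraries lay above the skin range. It was higher in melanophores by 1.75 ± 0.27 (adjusted p = 2.18e-06) and lower in iridophores by -2.17 ± 0.37 (adjusted p = 2.23e-06). The heavy chain gene slc3a2a had values of 227, 471 and 1970 in melanophore libraries and 46, 101 and 623 in skin, and rose by 2.16 ± 0.29 (adjusted p = 1.37e-07). Its excess over xanthophores was 1.42 ± 0.41 (adjusted p = 0.0263), lost on leaving out 8 of 24 libraries in turn. The other heavy chain gene, slc3a2b, was lower in iridophores, with values of 1883, 3294 and 6065 against 3442, 5037.5 and 9255 in skin. It fell by -0.72 ± 0.18 against skin (adjusted p = 0.000555) and by -0.94 ± 0.21 against xanthophores (adjusted p = 0.000359). Reads shared by close paralogs could have been split or lost in the counting, which was not tested for this pair or for the other paralog pairs named here.

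Leukocyte markers moved with the same contrasts. In melanophore libraries 2 of 6 leukocyte markers were higher than in skin, spi1b by 2.45 and cd74a by 1.3 on the log2 scale, and ptprc was lower by -0.61. The summed leukocyte markers ranged from 37300 to 73763 in melanophore libraries, from 11619 to 35502 in skin and from 3894 to 17041 in iridophore libraries, and no leukocyte marker had a median of 0. Their part in the results for slc7a7, slc3a2a and slc43a3b was not tested.

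Of the remaining amino acid carriers, slc43a2a, which encodes an efflux carrier for large neutral amino acids, had the largest fall in iridophores. Its values were 1, 36.5 and 110 in iridophore libraries and 134, 371.5 and 1178 in skin, without overlap, and it fell by -2.84 ± 0.32 (adjusted p = 2.23e-10). Its paralog slc43a2b had medians of 14.5 in iridophore libraries and 65 in skin and was too low to test. The gene slc7a10a encodes a light chain for small neutral amino acids. It was higher in iridophores than in melanophores by 1.88 ± 0.30 (adjusted p = 1.2e-06) and than in xanthophores by 2.33 ± 0.38 (adjusted p = 2.09e-06), with medians of 645, 168.5 and 96.5. Of the sorted kinds, iridophores were also highest for the glutamine carrier slc38a5b, with medians of 1640 in iridophore, 698 in xanthophore and 570.5 in melanophore libraries. This gene was not called between iridophores and skin. It was higher in iridophores than in melanophores by 1.37 ± 0.21 (adjusted p = 8.33e-07) and lower in melanophores than in skin by -0.99 ± 0.20 (adjusted p = 0.000176). The related slc38a2 was lower than in skin in all 3 sorted kinds, by -0.67 ± 0.19, -1.0 ± 0.21 and -0.70 ± 0.25 in iridophores, melanophores and xanthophores (adjusted p = 0.00324, 0.000261 and 0.0426). In D. aesculapii its iridophore and xanthophore differences were 0.34 and 0.84, and the xanthophore call was lost on leaving out 13 of 24 libraries in turn. Without the libraries of replicate number 3 the iridophore and melanophore differences were -0.45 and -0.59 (adjusted p = 0.27 and 0.269), and without number 4 they were -0.59 and -0.65 (0.133 and 0.198). The lysosomal peptide and histidine carrier slc15a4 was higher in iridophores than in xanthophores by 1.04 ± 0.35 (adjusted p = 0.0173), lost without any of 3 xanthophore libraries.

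Metal carriers included members high in 1 sorted kind and in more than 1. Of the 18, 5 of 13 tested were higher in iridophores than in skin and 3 lower, with 25.8% and 29.2% over all genes. In melanophores 2 of 6 were higher and 1 lower, with 21.1% and 19.6% over all genes. The copper transporter gene slc31a2, whose product lies on endosomes and lysosomes in mammals, had values of 108, 585.5 and 1163 in iridophore, 33, 56.5 and 182 in unenriched, 12, 156 and 281 in melanophore and 6, 86 and 346 in xanthophore libraries. The iridophore libraries were the high ones, and only the lowest of them came within the skin range. It rose in iridophores by 2.77 ± 0.21 against skin (adjusted p = 1.29e-15), 1.83 ± 0.29 against melanophores (adjusted p = 9.76e-07) and 2.43 ± 0.35 against xanthophores (adjusted p = 3.26e-07). The zinc exporter gene slc30a1a was highest in melanophores, with values of 521, 1079 and 3431 there and 235, 397.5 and 543 in skin. It rose by 1.49 ± 0.22 against skin (adjusted p = 7.48e-07) and 1.53 ± 0.34 against xanthophores (adjusted p = 0.00275), and was lower in iridophores than in melanophores by -1.09 ± 0.25 (adjusted p = 0.000357). The zinc importer gene slc39a1 rose in melanophores by 1.54 ± 0.25 (adjusted p = 3.14e-06) and in iridophores by 1.5 ± 0.23 (adjusted p = 3.87e-07), with medians of 527, 532.5 and 195 in melanophore, iridophore and skin libraries. Some melanophore markers rose in iridophore libraries and some iridophore markers in melanophore libraries, as given above, and their part was not tested. The zinc carrier of the Golgi slc39a13 was lower in melanophores by -0.84 ± 0.26 (adjusted p = 0.00873), lost without D. albolineatus melanophore replicate 4 or D. kyathit unenriched replicate 3. The zinc carrier of the endoplasmic reticulum slc39a7 had medians of 432, 653.5, 508 and 545 in iridophore, melanophore, xanthophore and unenriched libraries and was called in none of the 6 comparisons.

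The calcium exchanger slc24a5, which lies in melanosomes and is mutated in the golden zebrafish, was a member by a mean of 112.6 but was below the filter of the tests. Its values were 39, 201.5 and 1717 in melanophore, 0, 6.5 and 71 in iridophore, 0, 4 and 115 in xanthophore and 0, 2.5 and 71 in unenriched libraries. The melanophore libraries were the high ones, with overlap at their lowest values. The 1717 came from replicate 3 of the D. aesculapii melanophore libraries, which stood apart from the rest. Without that library the mean of slc24a5 fell below the limit of 100.

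Of the 16 carriers of other organic solutes, 2 of 8 tested were higher in iridophores than in skin and 3 lower, with 25.8% and 29.2% over all genes. In melanophores 2 of 4 were higher, slc22a7b.3 among them, and 2 lower, with 21.1% and 19.6% over all genes. The largest rise in iridophores was that of slc14a2, a urea transporter gene. Its values were 24, 24 and 55 in the D. aesculapii iridophore libraries, and 1248, 1791 and 1613 in D. albolineatus, 1247, 972 and 810 in D. kyathit and 1310, 1369 and 1634 in D. nigrofasciatus. Skin libraries held 12 to 249. The D. aesculapii iridophores thus lay within the skin range and the other 9 iridophore libraries above it. The mean difference over hybrids was 3.12 ± 0.28 (adjusted p = 4.32e-13), but it was 0.12 in D. aesculapii and 4.45, 3.66 and 4.23 in the others. A test of the difference among hybrids, added after the data were seen, gave an adjusted p of 0.00775.

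The creatine carrier family gene slc16a12b was lower in all 3 sorted kinds than in skin, where it had values of 258, 544.5 and 1505. Its differences were -1.56 ± 0.40 in iridophores (adjusted p = 0.00119), -1.52 ± 0.45 in melanophores (adjusted p = 0.00672) and -1.54 ± 0.50 in xanthophores (adjusted p = 0.024). The melanophore call was lost without D. aesculapii melanophore replicate 5 or D. kyathit unenriched replicate 3, and the xanthophore call on leaving out 8 of 24 libraries in turn. The iridophore call was lost without replicate number 4 or 5 (adjusted p = 0.052 and 0.0918), as was the melanophore call (0.0646 and 0.166). The xanthophore call was lost without number 3, 4 or 5 (adjusted p = 0.0654, 0.662 and 0.202). The lactate exporter family gene slc16a3 had values of 0, 21 and 324 in iridophore libraries and 54, 188.5 and 680 in skin, and was lower in iridophores by -1.40 ± 0.34 (adjusted p = 0.000562). The organic solute and steroid exporter subunit slc51a was lower in iridophores by -1.75 ± 0.37 (adjusted p = 0.000107) and in melanophores by -1.5 ± 0.43 (adjusted p = 0.00545), with skin values of 365, 739.5 and 1389. Its difference between iridophores and xanthophores, -1.31 ± 0.49 (adjusted p = 0.0315), was lost on leaving out 12 of 24 libraries in turn. Without replicate number 5 its differences from skin were -1.01 in iridophores and -1.61 in melanophores, and both calls were lost (adjusted p = 0.131 and 0.066). Markers of several other cells also fell against skin. Keratinocyte markers had median sums of 70580.5 in iridophore, 49175 in melanophore, 119010.5 in xanthophore and 157335.5 in skin libraries, and in xanthophores 1 of 6 was called lower. Dermal fibroblast and scale markers had 13794.5, 73803, 82342.5 and 223266, and erythrocyte markers 224.5, 1191.5, 968 and 10960.5, in the same order. Leukocyte markers fell in iridophores, but in melanophores and in xanthophores 2 of 6 were higher and 1 lower. The part of these markers in the falls was not tested.

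**Figure D3:**
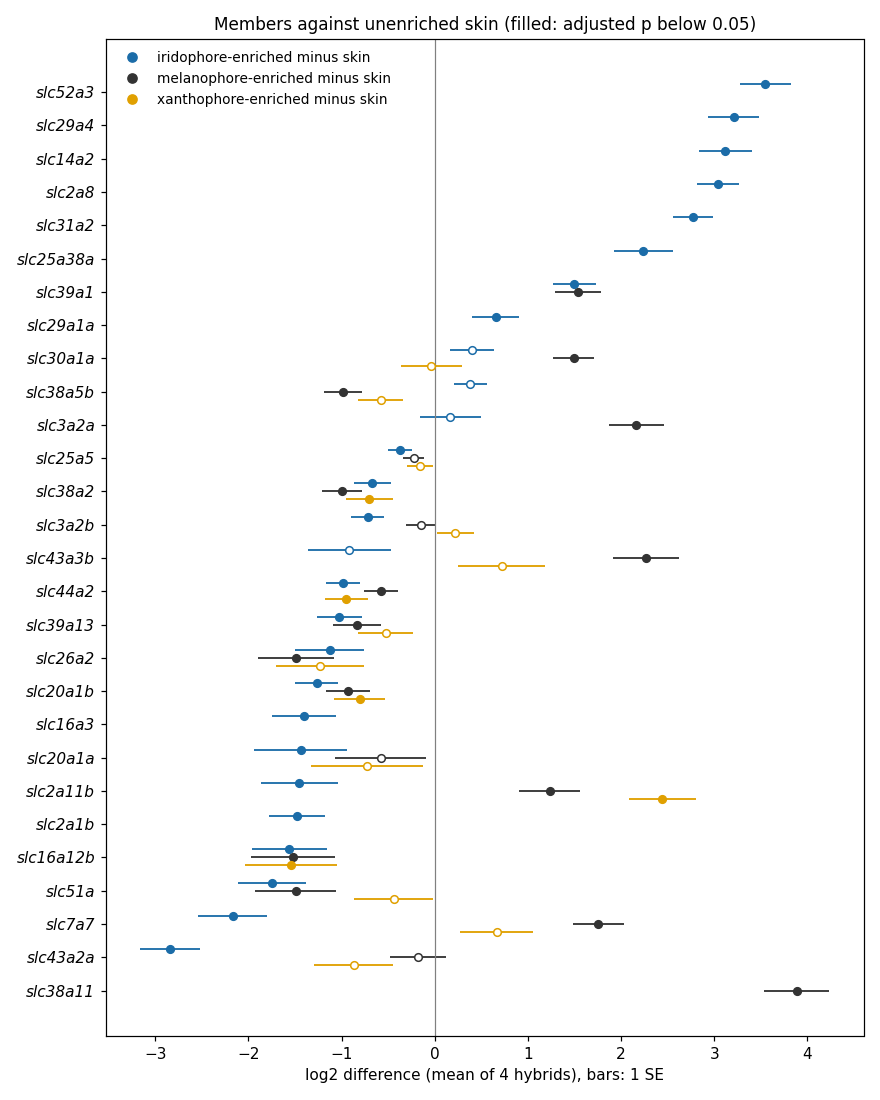
Points give the log2 difference of each named member from unenriched skin, averaged over 4 hybrids, with bars of 1 SE, filled where the adjusted p was under 0.05 and missing where the member was not tested. slc2a11b lies below 0 in iridophores, at -1.45, and above 0 in melanophores and xanthophores, at 1.23 and 2.44.

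Of the 8 carriers of inorganic anions or protons, 3 of 6 tested were higher in iridophores than in skin and 1 lower. Of 4 phosphate carriers 2 of 3 tested were lower in iridophores, where 25.8% of all genes were higher and 29.2% lower. The potassium chloride cotransporter slc12a4 had values of 589, 1301.5 and 3640 in iridophore, 89, 395 and 902 in melanophore and 97, 351.5 and 1243 in xanthophore libraries. It was higher in iridophores by 1.68 ± 0.27 against melanophores (adjusted p = 1.4e-06) and 2.03 ± 0.32 against xanthophores (adjusted p = 1.23e-06). The sulfate transporter slc26a2 was lower in melanophores than in skin by -1.49 ± 0.41 (adjusted p = 0.00353), with -3.58 in D. kyathit and -0.31 in D. nigrofasciatus. The phosphate transporter slc20a1b was lower than in skin in iridophores by -1.27 ± 0.23 (adjusted p = 6.92e-06), in melanophores by -0.93 ± 0.24 (adjusted p = 0.00165) and in xanthophores by -0.81 ± 0.27 (adjusted p = 0.0307). Weighted by precision, these differences were 0.13, 0.56 and 0.77 in D. aesculapii, opposite in sign to those of the other 3 hybrids. There the sorted libraries overlapped skin in range, and the signs in iridophores and melanophores rest on the weights. The D. rerio allele held 80, 312 and 516 in D. aesculapii iridophores and 598, 98 and 266 in skin. The paternal allele held 85, 219 and 464 against 650, 189 and 322. The xanthophore call was lost on leaving out 6 of 24 libraries in turn. Its paralog slc20a1a was lower in iridophores by -1.44 ± 0.50 (adjusted p = 0.0149), lost without D. aesculapii iridophore replicate 4. The choline transporter-like gene slc44a2 was lower than in skin in xanthophores by -0.95 ± 0.23 (adjusted p = 0.00254), in iridophores by -0.99 ± 0.18 and in melanophores by -0.58 ± 0.18. The xanthophore call was lost without replicate number 3 (-1.05, adjusted p = 0.0742) or 4 (-0.67, adjusted p = 0.351).

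Among the 19 mitochondrial carriers, 4 of 16 tested were higher in iridophores than in skin and 4 lower, with 25.8% and 29.2% over all genes. In melanophores 2 of 7 were called and in xanthophores 1 of 7, all lower, where 19.6% and 9.26% of all genes were lower. The largest rise was that of slc25a38a, a carrier of glycine into mitochondria for haem synthesis, with values of 4, 170.5 and 1267 in iridophore libraries and 0, 27.5 and 147 in skin. Its log2 difference was 2.24 ± 0.32 (adjusted p = 5.17e-08), and it ranged from 0.83 in D. kyathit to 4.71 in D. albolineatus. Haemoglobin and alas2 markers of erythrocytes were lower in the same libraries, with a median sum of 224.5 against 10960.5 in skin. Any relation of these markers to the rise was not tested.

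The iridophore difference from skin varied among hybrids for 7 of 85 members tested, where 5.61% of all genes did. They were slc14a2, slc31a2, slc25a38a, slc12a4, slc26a5, slc1a5 and slc20a1b. Between iridophores and melanophores 3 of 47 members varied, slc14a2, slc26a2 and slc20a1b, where 3.25% of all genes did. In the other 4 comparisons no member passed this test by limma, and 6, 7, 8 and 5 members had an unadjusted p under 0.05 for melanophores and xanthophores against skin, iridophores against xanthophores and melanophores against xanthophores. There 0.257% (melanophores against skin), 0.0297% (xanthophores against skin), 3.02% (iridophores against xanthophores) and 0.0296% (melanophores against xanthophores) of all genes passed. The sulfate transporter slc26a2 had iridophore values of 84, 22 and 72 in D. aesculapii and 2055, 1606 and 2690 in D. kyathit. In melanophores it had 183, 521 and 85 in D. aesculapii and 88, 53 and 85 in D. kyathit. The iridophore libraries of D. kyathit were thus the high ones, and the differences from melanophores in these 2 hybrids had opposite signs.

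Leaving out all libraries of 1 replicate number, which leaves 2 in each group, ended further calls given above. Against skin these were slc29a1a, slc20a1a, slc25a5 and slc3a2b in iridophores and slc26a2, slc39a13 and slc20a1b in melanophores. In xanthophores against skin they were slc20a1b and slc38a2, the latter at -0.52 without number 4 (adjusted p = 0.547). Between sorted kinds they were slc3a2b and slc15a4 between iridophores and xanthophores and slc3a2a and slc2a11b between melanophores and xanthophores. The difference of slc51a between iridophores and xanthophores was -0.24 without number 5 (adjusted p = 0.843) and that of slc43a3b -0.95 without number 4 (adjusted p = 0.496). The excess of slc43a3b in melanophores over xanthophores was 0.80 without number 5 (adjusted p = 0.315).

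Both alleles of a hybrid share 1 nucleus, so their ratio compares the parental copies within the same cells. The ratio was taken as log2 of paternal molecules divided by those of D. rerio, with 0.5 added to both, centred in each library on the median gene, and was tested with limma in each of the 16 groups. Of 973 tests over 126 members, 231 were called (23.7%), 104 with the paternal and 127 with the D. rerio allele higher. Over all genes tested in the 16 groups 21.3% were called, 9.59% paternal and 11.7% D. rerio. The share of tests called lay close to that of all genes. Of the 126 members tested, 91 were called in at least 1 group (72.2%, against 55.9% of 12629 genes). Of them 39 were paternal in every call (31%, against 24.5%), 37 D. rerio in every call (29.4%, against 24.2%) and 15 called both ways (11.9%, against 7.21%). Members were tested in more groups each than other genes, with 973 tests of 126 members and 82773 tests of 12629 genes.

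The heavy chain gene slc3a2b had the paternal allele higher in 9 of 16 groups, more than any other member, and the D. rerio allele in none. In iridophores all 4 hybrids were called. The paternal percent of its summed value was 81.7, 67.6 and 65.1 in D. aesculapii iridophores, 70.2, 65.8 and 69.9 in D. albolineatus, 74.8, 73.5 and 68.3 in D. kyathit and 81.0, 62.9 and 60.8 in D. nigrofasciatus. The centred log2 ratios were 1.22 ± 0.32, 1.14 ± 0.22, 1.32 ± 0.24 and 0.86 ± 0.24 (SE; adjusted p = 0.0119, 0.00117, 0.000849 and 0.0169). The calls for D. aesculapii and D. nigrofasciatus were each lost without replicate 3 of their iridophore libraries, and that for D. albolineatus without all libraries of replicate number 5 (1.08, adjusted p = 0.0758). In D. albolineatus the ratio differed among the kinds of library (F test in limma, adjusted p = 0.00385). That call was lost without precision weights or without replicate number 3. In this hybrid the ratio was 0.08 in melanophores, -0.25 in xanthophores and -0.27 in skin, where the paternal percent was 46.1, 43.8 and 45.2. In D. kyathit the ratios were 1.0, 1.15 and 0.94 in melanophores, xanthophores and skin, and those calls were each lost on leaving out 2 or 3 of the 3 libraries in turn. The calls in melanophores and xanthophores of D. nigrofasciatus were lost on leaving out any of their 3 libraries.

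**Figure D4:**
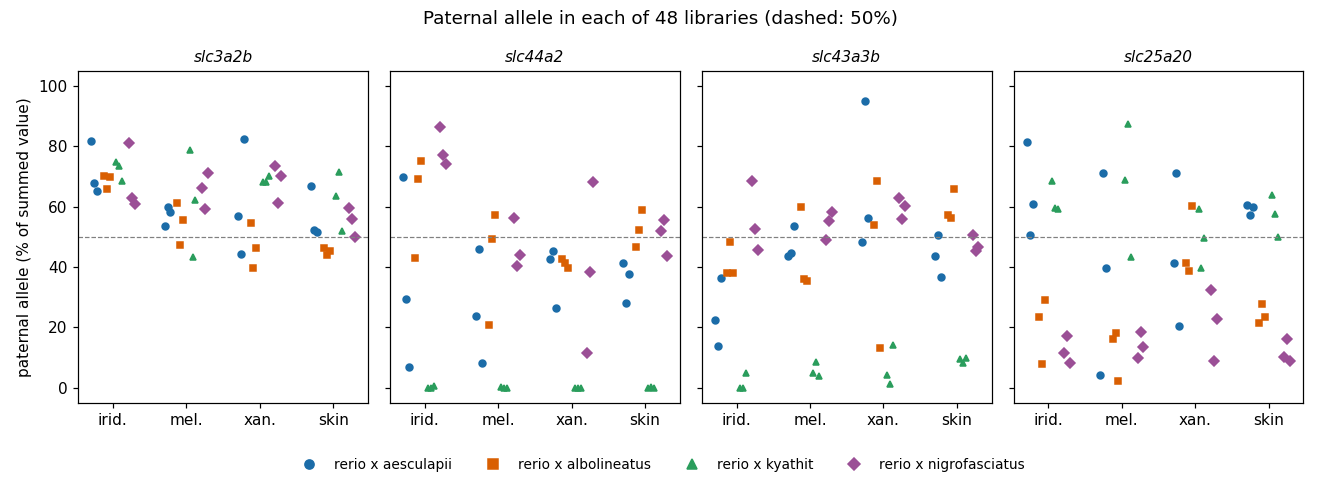
Each point is the paternal allele's percent of the summed value in 1 library, by kind and hybrid, with a dashed line at 50%. All 12 iridophore libraries lie above 60% for slc3a2b, and the 12 D. kyathit libraries lie at or near 0% for slc44a2.

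The D. kyathit allele was at or near 0 in the table for slc30a6, slc44a2 and slc10a3, and low for slc43a3b. These 4 are not the only members with a low D. kyathit allele. In slc27a1b the paternal values in D. kyathit skin were 7, 2 and 6, against 170, 259 and 95 for D. rerio. The zinc transporter slc30a6 had its paternal allele listed at 0 in all 12 D. kyathit libraries, where the summed values ranged from 68 to 508. The choline transporter-like slc44a2 had a paternal percent of 0 in 9 of the 12 D. kyathit libraries and at most 0.49 in the others, with summed values of 410 to 1390. In slc10a3, a member of the bile acid transporter family, the paternal percent was at most 1.14 in D. kyathit. In slc43a3b it was 9.61, 8.10 and 9.81 in D. kyathit skin 4.88, 8.48 and 3.97 in D. kyathit melanophores and 4.09, 1.3 and 14.02 in D. kyathit xanthophores, against 43.5, 44.7 and 53.4 in the melanophores of D. aesculapii. All groups of D. kyathit in which these 4 were tested were called for the D. rerio allele, with adjusted p from 2.02e-11 (slc44a2 in skin) to 0.0277 (slc10a3 in xanthophores, lost with 2 molecules added to each allele, adjusted p = 0.0686). The slc43a3b call in skin was lost without replicate number 3 (adjusted p = 0.272) or 4 (0.248) and that in xanthophores without number 4 (0.0702). Whether the paternal copy was silent or its reads were not assigned to it cannot be told apart in these tables. The ratio of slc44a2 also differed among kinds in D. nigrofasciatus (adjusted p = 0.00914), lost without precision weights or without replicate number 3. Its paternal percent was 86.3, 77.1 and 74.0 in iridophores, 56.1, 40.3 and 43.9 in melanophores, 11.5, 38.3 and 68.0 in xanthophores and 52.03, 55.4 and 43.6 in skin. The iridophore libraries were the high ones and did not overlap with the others.

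In 5 or more groups in 1 direction 9 of 126 members were called (7.14%, against 6.38% of all genes). Of these, 3 were mitochondrial carriers, a class that holds 19 of the 132 members. The phosphate carrier slc25a3b was called for D. rerio in 7 of 16 groups, all in D. albolineatus and D. nigrofasciatus. Its ratios were -1.11, -1.23, -0.74 and -1.32 in iridophores, melanophores, xanthophores and skin of D. albolineatus and -0.93, -0.83, -0.88 and -0.80 in those of D. nigrofasciatus. In D. aesculapii and D. kyathit they lay between -0.26 and 0.31, with no call. With the replicate number as a block in the fit, the melanophore and xanthophore calls of D. nigrofasciatus were lost (adjusted p = 0.0614 and 0.0566). Each of the 4 D. nigrofasciatus calls, and those in iridophores and melanophores of D. albolineatus, was lost without at least 1 of the replicate numbers. The carnitine-acylcarnitine carrier slc25a20 had the same 2 hybrids low. Its paternal percent in skin was 21.6, 27.6 and 23.4 in D. albolineatus and 10.1, 16.2 and 8.88 in D. nigrofasciatus, against 60.6, 57.3 and 60.0 in D. aesculapii and 63.9, 57.4 and 49.8 in D. kyathit. The coenzyme A carrier slc25a42 was called for D. rerio in 6 of 8 groups tested and in the skin of all 4 hybrids, with skin ratios of -1.12, -2.38, -2.30 and -4.28 in D. aesculapii, D. albolineatus, D. kyathit and D. nigrofasciatus. The D. aesculapii call was lost on leaving out any of its 3 skin libraries, and the D. nigrofasciatus call without replicate number 4 or 5 (adjusted p = 0.0868 and 0.169). The pyrimidine nucleotide carrier slc25a33 was called for D. rerio in the skin of D. albolineatus (-1.40) and D. kyathit (-1.19) and for the paternal allele in that of D. nigrofasciatus (0.84). The D. kyathit call was lost without replicate number 3 (-0.84, adjusted p = 0.46) or 4 (-0.77, adjusted p = 0.577) and the D. nigrofasciatus call without number 4 or 5 (adjusted p = 0.0578 and 0.0644).

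Beyond the mitochondrion, the fatty acid transport gene slc27a1b was called for D. rerio in the skin of all 4 hybrids, with ratios of -1.92, -3.15, -4.48 and -2.86. The D. aesculapii call was lost without replicate number 3 or 5 (adjusted p = 0.0663 and 0.131). The carrier slc16a12b was likewise called for D. rerio in all 4, with -1.57, -1.13, -1.34 and -0.79, of which the D. nigrofasciatus call was lost without replicate 3 of its skin libraries and with the replicate block (adjusted p = 0.0744), and the D. aesculapii call without replicate 5 of its skin libraries. The Golgi zinc carrier slc39a13 was called for the paternal allele in 5 of 10 groups, with 1.54, 1.13 and 0.86 in the skin of D. albolineatus, D. kyathit and D. nigrofasciatus. Its D. kyathit skin call was lost with the replicate block (adjusted p = 0.0517). The amino acid carrier slc38a2 was called for the paternal allele in D. albolineatus skin (1.11) and for D. rerio in iridophores of D. kyathit (-1.88) and D. nigrofasciatus (-1.92). The related slc38a10 was called for D. rerio in 6 of 15 groups, with -1.67 in D. albolineatus skin and -2.37 in D. nigrofasciatus skin. Its call in D. aesculapii skin (-0.83) was lost on leaving out any library of that group.

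**Figure D5:**
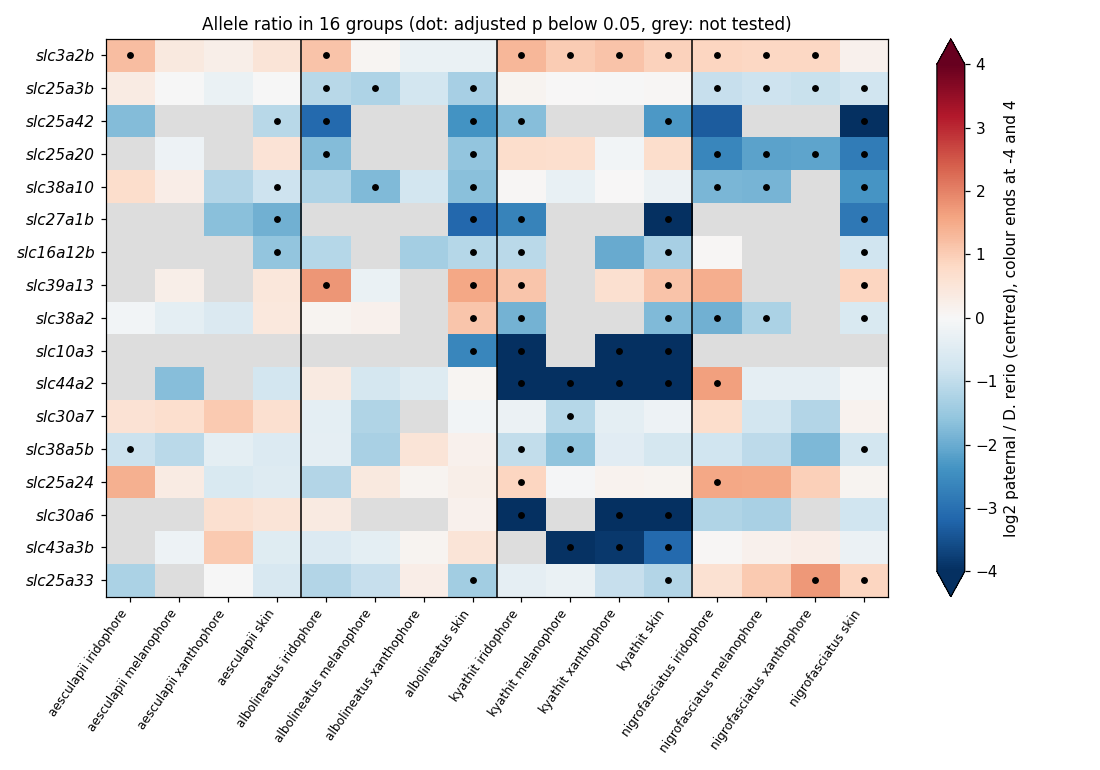
Colour gives the centred log2 ratio of paternal to D. rerio allele for 17 members in 16 groups, red where the paternal and blue where the D. rerio allele was higher, with a dot where the adjusted p was under 0.05 and grey where the group was not tested. slc3a2b is red in 9 dotted groups, slc25a3b is blue in 7 dotted groups of D. albolineatus and D. nigrofasciatus, and slc44a2 is darkest in D. kyathit.

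Whether allele ratios differed among the 4 hybrids or among the 4 kinds was tested with F tests. Among hybrids 14 of 30 members tested differed in iridophores, 4 of 19 in melanophores, 4 of 11 in xanthophores and 28 of 87 in skin, where 39.5%, 24.6%, 21% and 36.5% of all genes did. The tests among kinds of smallest p short of a call included those of slc30a7, a zinc transporter of the secretory pathway, and slc25a24, a mitochondrial ATP-magnesium and phosphate carrier. In D. nigrofasciatus the ratios of slc30a7 were 0.72, -0.72, -1.17 and 0.14 in iridophores, melanophores, xanthophores and skin (adjusted p = 0.0653). The paternal allele of slc25a24 was higher in iridophores of D. kyathit (0.85 ± 0.20, adjusted p = 0.00634) and D. nigrofasciatus (1.53 ± 0.34, adjusted p = 0.0055), and the first call was lost on leaving out 2 of its 3 libraries in turn and the second on leaving out 1. Among kinds the members that differed were 0 of 11 in D. aesculapii, 1 of 17 in D. albolineatus (slc3a2b), 0 of 19 in D. kyathit and 1 of 22 in D. nigrofasciatus (slc44a2), where 4.69%, 6.98%, 2.01% and 1.65% of all genes did. In D. aesculapii and D. kyathit 2 and 3 members had an unadjusted p under 0.05 in limma. The calls of slc3a2b and slc44a2 among kinds were both lost without precision weights, and also without replicate number 3. Without number 5, 1 of them was lost and 1 could not be tested, and without number 4, 1 could not be tested. On simulated data the test among kinds called too many genes, most in D. aesculapii and D. albolineatus, so the call for slc3a2b is less certain than its p-value reads.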

How the data were processed

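PolyA RNA was made into libraries with a SMART-seq2 kit and Nextera tagmentation and sequenced as paired ends, per the labels' protocols. The authors deposited a table for each parental allele, whose values are treated here as a score: allele counts divided by a size factor per column and then rounded. When size factors were computed again by the median-ratio method, those of the 96 columns lay between 0.997 and 1.003. The submitters' processing notes name GRCz11, featureCounts and DESeq2 1.44.0 without giving their roles. How reads were aligned and assigned to alleles was not given in the sources used here.

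Molecules per library (36368 to 982365) were estimated from the spread of allele shares between the libraries of a group, so depths and the 5-molecule filters are estimates, and amplified reads are not independent molecules. Expression was fitted in limma 3.58.1 (R 4.3.3) on log2 of the summed score plus 20, with a mean for each of the 16 groups, precision weights from squared residuals and moderated variances with a trend. Allele ratios used log2 of molecules plus 0.5, centred per library (values removed -0.0557 to 0.861), without ratios from under 3 molecules and without mitochondrial genes. A group was tested where at least 2 of its 3 libraries held 5 or more molecules, and F tests needed 10 molecules and at least 5% for the rarer allele. All p-values were adjusted by Benjamini-Hochberg over all genes tested. Figures were drawn with matplotlib 3.10.9.

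The labels call the replicate number a batch, but the main tests did not pair samples by it. In the fits the number was used only in alternatives, as a block or by leaving out its libraries. Deviations from the group means, over 2241 genes, correlated by 0.0871 on average between libraries of 1 number and hybrid, against -0.0429 between different numbers.

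Members, lists and tests were chosen with earlier results of these data known. Named were the largest rises and falls with 1 sign in all 4 hybrids, a list of carriers and the members called in most groups. Those of smallest F test p, the highest members and those at the limit of the rule were named too. The genes slc25a55a, slc26a5, slc1a5, slc22a21, slc7a3a and slc7a8a, and members in counts of 5 or fewer, were chosen after their values were seen. The weights, the allele fit without a trend and the test of variation among hybrids were also chosen after the data were seen, the first 2 on simulated data. In the substrate classes slc43a3b was placed with nucleobase carriers, and slc9a3r1a, slc7a6os and slc4a1ap were counted as no carriers.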

Additional observations from a re-analysis of the deposited data

Results flagged for a closer look

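Each of the results here differed between hybrids or kinds of library by a test of the difference itself, and no explanation was tested. No group held 4 to 10 libraries, so single libraries were not flagged here for outlying values. The D. aesculapii melanophore library of replicate 3, which stood apart from the rest, is described above.

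The difference of iridophores from skin varied among hybrids for slc14a2 (adjusted p = 0.00775), slc25a38a (0.0125), slc20a1b (0.0213), slc31a2 (0.0255), slc12a4 (0.0274), slc26a5 (0.0384) and slc1a5 (0.0414). That of iridophores from melanophores varied for slc26a2 (0.0123), slc14a2 (0.0207) and slc20a1b (0.0487). This limma test was added after the data were seen.

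The allele ratio of slc3a2b differed among kinds of library in D. albolineatus (adjusted p = 0.00385) and that of slc44a2 in D. nigrofasciatus (0.00914), by F tests in limma. Both calls were lost without precision weights or without replicate number 3. Without number 5, 1 of them was lost and 1 could not be tested. Among hybrids the ratio of slc44a2 differed in skin (1.6e-12) and melanophores (5.68e-05), that of slc30a6 in skin (3.93e-08) and that of slc43a3b in skin (2.23e-07), melanophores (3.98e-06) and xanthophores (0.000566). For these 3 genes the D. kyathit allele was the low one. The ratio of slc25a33 differed among hybrids in skin (2.07e-06) and iridophores (0.0157), that of slc25a20 in skin (2.3e-06) and that of slc25a3b in skin (0.000124), iridophores (0.000403) and melanophores (0.0321).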

How the results depend on the processing

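No named call changed sign under an alternative that could be run. The balance of members called did turn: from 25 higher and 27 lower in iridophores against skin to 26 and 22 with recomputed size factors and 15 and 13 without replicate number 4. Over all genes it went from 1613 and 1826 to 1773 and 1576, and 1006 and 1129, in the same fits. In melanophores against skin the members went from 12 and 13 to 13 and 12 with recomputed size factors and 9 and 8 without precision weights. Without replicate number 3, 4 or 5 they were 9 and 3, 8 and 4, and 12 and 7. Over all genes more were higher than lower in each of these melanophore fits, from 739 and 687 in the main fit to 313 and 266 without number 4. For iridophores and melanophores against skin the balance of members also turned on leaving out some single libraries. In xanthophores it went from 1 and 5 to 1 and 0, and 2 and 1, without number 3 or 5. Over all genes these counts were 397 and 312, 134 and 55, and 164 and 124. Between iridophores and xanthophores the members went from 7 and 6 to 3 and 4 without number 3, and all genes from 653 and 630 to 368 and 494. The allele calls went from 104 paternal and 127 D. rerio to 57 and 50 without number 4. Without a filter on low values all 132 members were tested. The members called then went from 25 of 46 to 52 in melanophores against skin and from 6 of 38 to 24 in xanthophores against skin. They went from 17 of 47 to 50 between iridophores and melanophores and from 13 of 38 to 35 between iridophores and xanthophores. Between melanophores and xanthophores they went from 5 of 45 to 8. Calls over all genes rose too, from 739 higher and 687 lower to 1376 and 4258 in melanophores against skin. In xanthophores against skin those went from 397 and 312 to 605 and 4697. Without precision weights the members called were 3 in xanthophores against skin, 129 for the allele ratio in 16 groups (231 with weights) and 0 among kinds (2 with weights). With 10 or more molecules required, 1 differed among kinds. The cause was not tested.

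Leaving out 1 library, or all libraries of 1 replicate number, gave 28 to 54 members in iridophores, 12 to 28 in melanophores and 0 to 8 in xanthophores against skin. It gave 14 to 22 between iridophores and melanophores, 7 to 14 between iridophores and xanthophores, 1 to 5 between melanophores and xanthophores, 107 to 233 for the allele ratio in 16 groups, 0 to 3 among kinds and 8 to 53 among hybrids. The lowest count in xanthophores came without replicate number 4, by limma. Of 64 named expression calls 49 were lost in no refit without 1 library that could still test them. Of 81 named allele calls the same held for 42, where only libraries of a call's own group were left out. A call that could no longer be tested was not counted as lost. Without all libraries of replicate number 3, 4 or 5, 42, 48 and 44 named calls were lost, of 127, 124 and 129 that could be tested.

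With the replicate number as a block the counts were 52, 25, 6, 17, 13 and 5 in the 6 expression comparisons, 178 for the allele ratio in 16 groups, 3 among kinds and 46 among hybrids. The block ended 11 named calls, all of allele ratios. Beside those given above these were slc38a5b in D. aesculapii iridophores (adjusted p = 0.0875) and D. nigrofasciatus skin (0.0514), slc27a1b in D. kyathit iridophores (0.0512), slc38a10 in D. albolineatus melanophores (0.0584), slc25a20 in D. nigrofasciatus xanthophores (0.0765) and slc38a2 in D. nigrofasciatus melanophores (0.0666) and skin (0.0998). Melanophore and xanthophore libraries were the shallowest, so members not tested or not called there may still differ.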

Other observations

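Water channels, ABC transporters and ion pumps of the P-type were counted in the same way. Of 78 such genes 30 reached the same mean value of 100. In iridophores 7 of 26 tested were higher than in skin and 11 lower, with 25.8% and 29.2% over all genes. In melanophores 4 of 17 tested were higher than in skin and 3 lower, with 21.1% and 19.6% over all genes. In xanthophores 1 of 18 was called, and it was higher, with 11.8% higher and 9.26% lower over all genes. The water channel gene aqp1a.1 was higher in iridophores than in skin by 4.87 ± 0.26 (SE) on the log2 scale (adjusted p = 9.33e-20 in limma), more than any solute carrier described. The water and glycerol channel gene aqp3b was higher by 2.24 ± 0.25 (adjusted p = 2.73e-10) and the ABC transporter gene abcg2c by 2.27 ± 0.24 (adjusted p = 2.14e-11), while aqp8a.1 was lower by -2.89 ± 0.44 (adjusted p = 4.97e-07).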
